A study of Homo sapiens with 4 samples.

Results

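VCP (also called p97 or valosin-containing protein) and 9 of its cofactors were followed through the 4 KBM5 libraries of the series. The members were fixed by name as rows of the deposited expression table: VCP, NPLOC4, UFD1, FAF1, FAF2, UBXN1, UBXN4, UBXN7, NSFL1C and PLAA. All 10 were found, each in a single row, among 50868 genes, and all 10 were among the 11004 genes whose mean reached 1 FPKM (fragments divided by gene length in kilobases and by library depth). KBM5 is an established human chronic myeloid leukemia line that carries the BCR-ABL fusion, and every group was made from it. CTR is the control, DSF and IM are single treatments, read here as disulfiram and as the BCR-ABL kinase inhibitor imatinib, and IM-DSF is both together. The labels give no dose and no treatment time, and there was 1 library per group. The study's title is about hitting GPX4 and the BCR-ABL kinase at once in leukemia stem cells; a single cultured line is a limited model of these.

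VCP is a ring-shaped ATPase that pulls ubiquitin-tagged proteins out of complexes and membranes and unfolds them, mostly ahead of the proteasome. UFD1 and NPLOC4 (the protein is called NPL4) form a heterodimer that docks on the ring, binds the ubiquitin chain and starts unfolding. NSFL1C (p47) is a different docking partner used in Golgi and nuclear membrane assembly, PLAA links the ring to ubiquitin turnover, and the UBX-domain proteins bring it to particular places or ligases. A copper complex of the main disulfiram metabolite is reported to bind NPL4 and make it aggregate. That is an action on the protein, while these data measure RNA only. On GRCh38.p14, with the coordinates of the deposited table, VCP (ENSG00000165280) lies at chr9:35056064-35073249, NPLOC4 (ENSG00000182446) at chr17:81556887-81648465, UFD1 at chr22:19449910-19479215, NSFL1C at chr20:1442162-1473842 and PLAA at chr9:26904083-26947463, all on the minus strand. FAF1 lies at chr1:50437028-50960263, UBXN1 at chr11:62676498-62679117 and UBXN7 at chr3:196347662-196432474 on the minus strand, and FAF2 at chr5:176447628-176510074 and UBXN4 at chr2:135741619-135785055 on the plus strand.

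The depth of the libraries was read from the values themselves. In single-exon genes, FPKM multiplied by length was a whole multiple of a fixed step, within 0.005 of a whole number, for about 95% of the genes, and the steps put the denominators at 14506545 fragments for CTR, 14704466 for DSF, 15810648 for IM and 12443256 for IM-DSF. With these, a gene length and whole fragment numbers were recovered for 10993 of the 11004 genes, and the genes recovered in the whole table held 98.4% to 98.5% of the denominators. Each member was backed by 476 (UBXN1 in CTR) to 6028 (VCP in CTR) fragments in a library. The myeloid identity of the line was visible in all libraries: 7 of 7 myeloid markers reached 1 FPKM, while 0 of 6 lymphoid, 0 of 5 erythroid and 0 of 4 megakaryocyte markers did (CD2, CD3E, MS4A1, HBG1, HBG2, PF4 and PPBP were listed at 0 throughout). The summed level of the 7 myeloid markers was 389 FPKM in control cells, 470.0 with DSF, 694 with IM and 861 with both. LYZ, the lysozyme gene, made up most of that difference, with 154, 217, 399 and 599 FPKM in the same order. The other 6 summed to 235, 253, 295 and 262 FPKM. In IM-DSF beside CTR, SPI1 was lower, at 52.7 beside 58.1 FPKM, as was CD33, at 8.4 beside 8.56. CSF3R was higher, at 22.1 beside 5.003 FPKM, as were ANPEP (12.1 beside 7.99), CEBPA (164 beside 153) and MPO (2.79 beside 2.49). Their part in the differences below was not tested. In bulk RNA, fewer cells of a kind and less RNA per cell cannot be told apart.

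RefSeq start windows of 3 members are printed because VCP had the highest level of the 10 and NSFL1C and UBXN4 had the largest differences in each direction. They are on GRCh38.p14, 250 bases before a start annotated there, 5′ to 3′ on the strand of the gene. For NSFL1C that start lies 6993 bases inside the gene start of the deposited table, so its window belongs to an internal start. The starts of VCP and UBXN4 lie 624 and 236 bases inside theirs. The windows of VCP and NSFL1C thus lie wholly within the deposited gene, and that of UBXN4 mostly. The VCP window is chr9:35072626-35072875 (minus strand), the UBXN4 window chr2:135741605-135741854 (plus strand) and the NSFL1C window chr20:1466850-1467099 (minus strand). Capitals mark every match, on either strand, to any of 6 motifs: the CCAAT box, the E-box CACGTG, the GC box GGGCGG, the core GACGTG of the unfolded protein response element, the antioxidant response element TGACNNNGC and the heat shock element.
VCP: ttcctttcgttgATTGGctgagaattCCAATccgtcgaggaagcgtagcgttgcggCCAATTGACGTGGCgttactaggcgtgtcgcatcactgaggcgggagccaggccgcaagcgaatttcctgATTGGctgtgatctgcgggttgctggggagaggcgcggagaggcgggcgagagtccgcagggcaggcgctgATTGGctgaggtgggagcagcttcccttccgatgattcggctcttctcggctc
UBXN4: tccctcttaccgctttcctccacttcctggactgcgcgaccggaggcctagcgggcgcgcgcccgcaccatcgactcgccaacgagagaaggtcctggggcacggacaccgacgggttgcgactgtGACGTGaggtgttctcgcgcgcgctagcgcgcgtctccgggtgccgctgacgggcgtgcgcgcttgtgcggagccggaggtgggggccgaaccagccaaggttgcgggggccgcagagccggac
NSFL1C: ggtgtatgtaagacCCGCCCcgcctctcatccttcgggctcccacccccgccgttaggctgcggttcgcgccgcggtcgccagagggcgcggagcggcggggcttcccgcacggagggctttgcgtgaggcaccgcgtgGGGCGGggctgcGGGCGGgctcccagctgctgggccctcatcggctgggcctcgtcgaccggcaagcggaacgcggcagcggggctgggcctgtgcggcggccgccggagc
The VCP window held 5 CCAAT boxes, 1 of them adjoining a stretch that matches both TGACNNNGC and GACGTG. UBXN4 held a single GACGTG and no other motif of the 6, and NSFL1C held 3 GC boxes. CCAAT occurs in 32% of all 35116 windows of this length, GGGCGG in 42.6%, GACGTG in 6.50%, CACGTG in 6.34%, TGACNNNGC in 10.9% and the heat shock element in 0.441%. Of the 10 members, 9 have a window in the table and 8 have one within 10 kb of the gene start in the deposited table (UFD1 and NPLOC4 are the others). Among these 8, CCAAT was found for VCP alone, CACGTG for FAF1 and UBXN1, GACGTG for VCP and UBXN4, and the heat shock element for 0. GGGCGG was found for 5 of the 8 (FAF2, UBXN1, UBXN7, NSFL1C and PLAA) and TGACNNNGC for VCP and FAF2. These matches describe the letters of the windows and show no binding.

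Before levels are set side by side, the length behind each FPKM matters. For all 10 members, the recovered length equalled the sum of all distinct annotated exons in GENCODE 29, with overlapping versions of an exon added more than once. Over 10320 genes with the same ends in both annotations, 89.3% had exactly this length and 16.2% had that of the merged exons (both can hold in 1 gene). The recovered length was a median of 1.47 times the merged exon length (quartiles 1.12 and 1.86). UBXN1 stood far out at 4.11 times, with 10414 bases counted where its merged exons cover 2532, and only 0.281% of the genes had a larger factor. NPLOC4 was at 1.57, VCP at 1.43 and FAF1, the lowest of the 10, at 1.07. The deposited FPKM understates a gene by this factor in all 4 libraries alike, so ratios between libraries are not touched. Levels between genes are therefore given below per kilobase of merged exons, a scale chosen after seeing the data; merged exons still include rarely used ones.

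**Figure D1:**
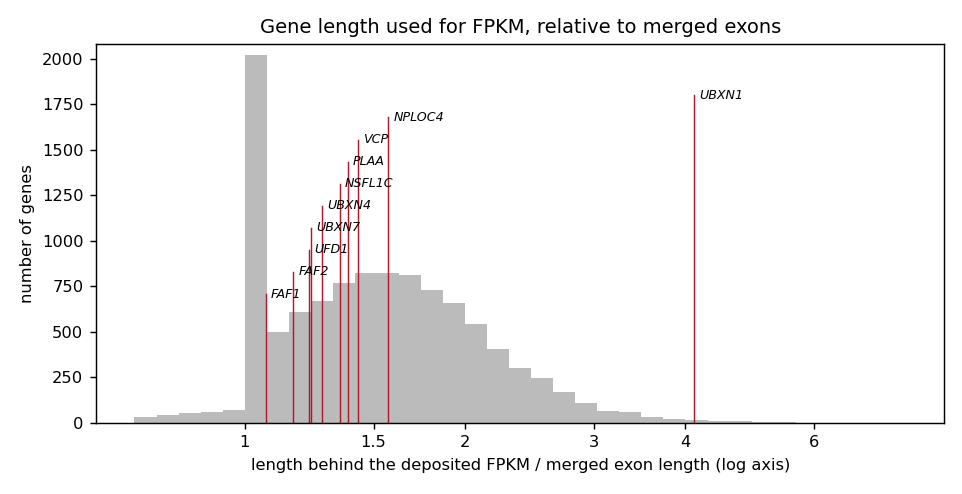
Histogram of the length behind the deposited FPKM divided by the merged exon length (log axis) over genes with a recovered length, with number of genes on the y axis; red lines mark the 10 members. UBXN1 sits at 4.11, away from the other 9, which lie between 1.07 and 1.57.

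On that scale VCP was the most abundant of the 10 in every library, at 76.4 in control cells, 70.8 with DSF, 57.6 with IM and 59.8 with both (fragments per kilobase of merged exons, scaled to depth as FPKM is). UBXN4 came next in every library, at 29.3, 32.4, 35.9 and 42.6. The other 8 lay close together, between 10.8 (NSFL1C in IM-DSF) and 19.8 (UFD1 in CTR), and many neighbours in their order had overlapping counting intervals. In CTR the order below UBXN4 was UFD1, PLAA, NPLOC4, NSFL1C, FAF1, FAF2, UBXN1 and UBXN7; PLAA, NPLOC4 and NSFL1C were not separated from their neighbours among the 3, nor were the last 4 from theirs. In IM-DSF the order was UBXN1, NPLOC4, UBXN7, UFD1, PLAA, FAF2, FAF1 and NSFL1C, where only UBXN1 was separated from its lower neighbour. With the deposited FPKM, UBXN1 would be last in all 4 libraries, at 3.15 to 4.14 FPKM. VCP made up 33.3% of the summed level of the 10 in control cells, 31.4% with DSF, 27.9% with IM and 28.4% with both.

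**Figure D2:**
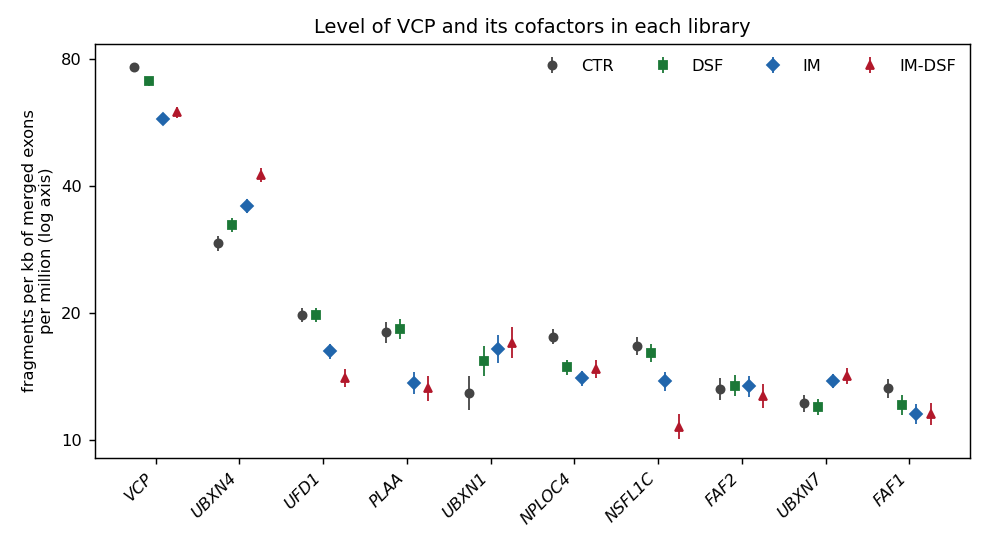
Level of each of the 10 genes (fragments per kilobase of merged exons, scaled to depth as FPKM is, log axis) in CTR, DSF, IM and IM-DSF; bars are exact Poisson 95% intervals for counting error. VCP is highest and UBXN4 next in all 4 libraries, and these approach each other from 76.4 and 29.3 in CTR to 59.8 and 42.6 in IM-DSF.

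None of the 10 genes differed by 1 log2 unit or more in log2(FPKM + 1), the size used as a call, in any of the 5 comparisons. The added 1 makes this size stricter than a ratio of 2.0 in FPKM, the more so the lower the gene. A single library per group allows neither a p-value nor a check on replicates. The intervals below are exact conditional binomial 95% intervals on the recovered fragments, cover counting error only, and are too narrow where fragments are PCR copies. The share of all 11004 genes past 1 log2 unit was 1.12% in DSF against CTR, 2.43% in IM against CTR, 4.28% in IM-DSF against CTR, 1.74% in IM-DSF against IM and 2.37% in IM-DSF against DSF, so 0 of 10 is close to the background. At the smaller size of 0.5 log2 units, NSFL1C (lower) and UBXN4 (higher) passed in IM-DSF against CTR, 2 of 10 where the background was 22.7%. NSFL1C also passed in IM-DSF against DSF, 1 of 10 with a background of 14.6%. The other 3 comparisons held 0 of 10, with 6.3%, 15.0% and 7.84% of all genes past that size in DSF against CTR, IM against CTR and IM-DSF against IM.

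**Figure D3:**
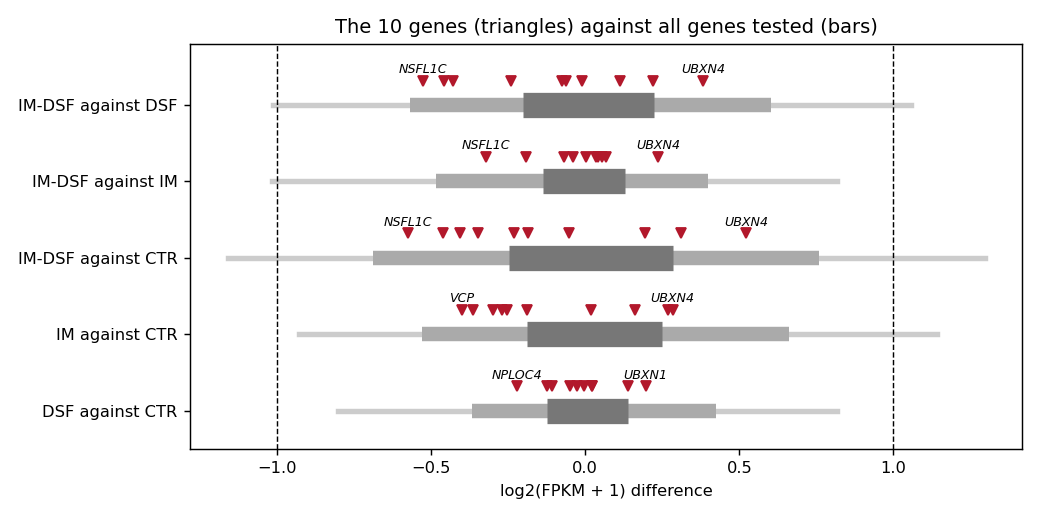
Differences in log2(FPKM + 1) of the 10 genes (red triangles) in 5 comparisons, above bars for all 11004 genes (dark, quartiles; medium and thin, wider percentile ranges); dashed lines mark 1 log2 unit. No triangle reaches a dashed line, and NSFL1C is the lowest of the 10 in the 3 comparisons that involve IM-DSF.

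VCP, the ATPase itself, stood at 53.6 FPKM in control cells, 49.7 with DSF, 40.4 with IM and 41.9 with both. Both libraries with IM lay below both without it. IM was 0.753 times CTR (95% interval 0.725 to 0.782) and IM-DSF was 0.844 times DSF (0.810 to 0.879). DSF alone was 0.927 times CTR (0.894 to 0.961), while IM-DSF was 1.04 times IM (0.996 to 1.08), an interval that includes 1.

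NPLOC4, the gene of the reported disulfiram target, stood at 11.2 FPKM in control cells, 9.47 with DSF, 8.92 with IM and 9.39 with both. CTR was the highest and the 3 treated libraries lay close together below it. DSF was 0.845 times CTR (0.797 to 0.896), the lowest ratio to CTR of the 10 genes in DSF, and it lay at percentile 12.5 of all genes tested. IM was 0.796 times CTR (0.751 to 0.844) and IM-DSF 0.838 times (0.788 to 0.892). IM-DSF was 1.05 times IM (0.988 to 1.12) and 0.992 times DSF (0.930 to 1.06), and both intervals include 1. NPLOC4 shares 36 of its 9574 merged exon bases with TSPAN10 on the opposite strand, which had 0 to 0.0452 FPKM.

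UFD1, the heterodimer partner of NPLOC4, stood at 16.2 FPKM in control cells, 16.2 with DSF, 13.3 with IM and 11.5 with both. DSF alone was 0.998 times CTR (0.944 to 1.05), IM was lower and IM-DSF the lowest. IM-DSF was 0.710 times CTR (0.665 to 0.756), 0.866 times IM (0.811 to 0.924) and 0.711 times DSF (0.667 to 0.758). Its order over the libraries therefore differed from that of NPLOC4. The ratio of UFD1 to NPLOC4 per kilobase of merged exons was 1.13 in control cells, 1.33 with DSF, 1.16 with IM and 0.954 with both. UFD1 exons share up to 427 of 8736 bases with each of 3 antisense transcripts, all at or under 0.307 FPKM. From CTR to IM-DSF the UFD1 to NPLOC4 ratio was multiplied by 0.846 (0.775 to 0.925, counting error).

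NSFL1C, the p47 cofactor, stood at 12.4 FPKM in control cells, 12 with DSF, 10.3 with IM and 8.0 with both. It was lowest in the combination and showed the largest difference of the 10 genes, at 0.645 times CTR (0.593 to 0.701). IM-DSF was also below IM (0.780 times, 0.716 to 0.849) and below DSF (0.668 times, 0.614 to 0.726), and DSF alone was 0.965 times CTR (0.899 to 1.04). NSFL1C shares 492 of its 6531 merged exon bases (7.53%) with SIRPB2 on the same strand, and how the counting divided such reads is not given in the sources used here. SIRPB2 moved the other way, with 1.15 FPKM in control cells, 2.20 with DSF, 4.44 with IM and 5.29 with both; its part in the NSFL1C values was not tested.

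PLAA, a ubiquitin-binding partner of VCP, stood at 13.0 FPKM in control cells, 13.3 with DSF, 9.91 with IM and 9.60 with both. The libraries fell into a pair without IM and a lower pair with IM, and the interval of the ratio with DSF to without it included 1 in either (1.02 times, 0.941 to 1.10, and 0.969 times, 0.883 to 1.06). IM was 0.760 times CTR (0.699 to 0.825), and IM-DSF was 0.724 times DSF (0.662 to 0.791). Its exons share 272 of 4825 bases with IFT74 on the opposite strand, which had 2.85, 3.23, 3.51 and 4.2 FPKM over the libraries in the order CTR, DSF, IM, IM-DSF. The library kit was stranded, but the use of strand in counting is not given in the sources used here, and the part of IFT74 in the PLAA values was not tested.

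Of the 5 genes of the FAF and UBXN names, FAF1 was below CTR, FAF2 close to it and UBXN1, UBXN4 and UBXN7 above it in IM and IM-DSF. FAF1, which binds ubiquitin and VCP and takes part in taking replisomes off DNA, stood at 12.5 FPKM in control cells, 11.3 with DSF, 10.8 with IM and 10.8 with both. The 3 treated libraries were 0.911 (0.846 to 0.982), 0.868 (0.806 to 0.935) and 0.870 (0.804 to 0.942) times CTR. FAF2, a hairpin protein of the endoplasmic reticulum and lipid droplets, was the flattest of the 10, with 11.4, 11.6, 11.5 and 10.9 FPKM in the same order. Its 5 ratios ran from 0.945 (0.867 to 1.03) to 1.02 (0.937 to 1.10), and all 5 counting intervals included 1.

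UBXN4, an endoplasmic reticulum membrane protein that recruits VCP for protein degradation there, stood at 23.0 FPKM in control cells, 25.4 with DSF, 28.2 with IM and 33.4 with both. Every treated library was above CTR and the combination was the highest. IM-DSF was 1.45 times CTR (1.37 to 1.54), 1.19 times IM (1.12 to 1.25) and 1.31 times DSF (1.24 to 1.39), DSF was 1.11 times CTR (1.04 to 1.17) and IM 1.23 times (1.16 to 1.3). Per kilobase of merged exons, UBXN4 had 0.383 of the VCP level in control cells, 0.457 with DSF, 0.624 with IM and 0.712 with both. That ratio was multiplied by 1.86 from CTR to IM-DSF (1.74 to 1.99, counting error), the largest shift among the 9 ratios between members that were computed. These 9 pairs were picked from all possible pairs. Others, such as UBXN4 with NSFL1C, were not computed, so this is no ranking over all pairs.

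UBXN7, which connects VCP to cullin-RING ubiquitin ligases, stood at 9.94 FPKM in control cells, 9.74 with DSF, 11.2 with IM and 11.5 with both. Both libraries with IM lay above both without it: IM was 1.13 times CTR (1.06 to 1.2) and IM-DSF 1.18 times DSF (1.11 to 1.26). UBXN1, a UBA- and UBX-domain cofactor that binds ubiquitin chains, stood at 3.15 FPKM in control cells, 3.75 with DSF, 4.0 with IM and 4.14 with both. All 3 treated libraries were above CTR, at 1.19 (1.05 to 1.35), 1.27 (1.13 to 1.43) and 1.32 (1.16 to 1.49) times its value. UBXN1 had the widest intervals of the 10 because it had the fewest fragments.

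**Figure D4:**
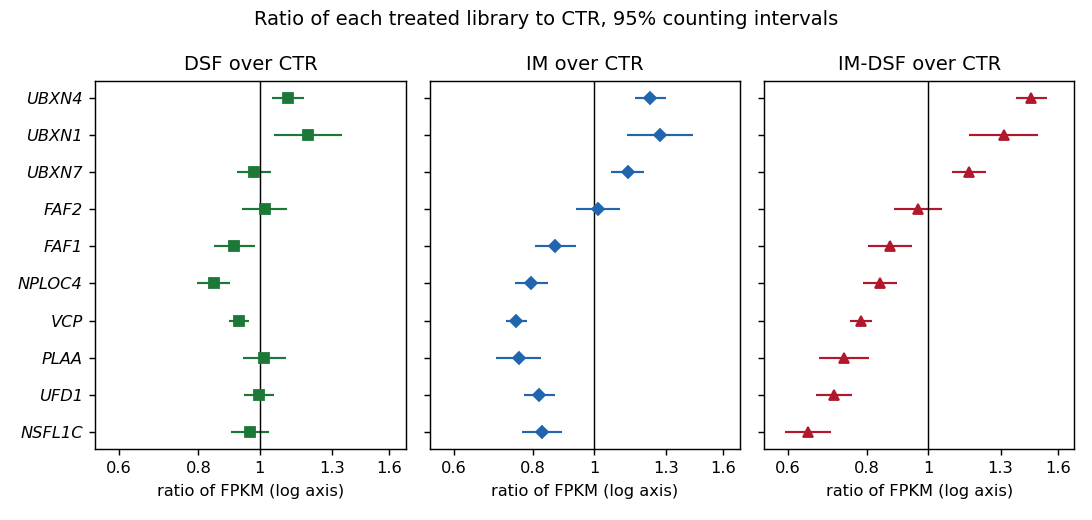
Ratio of each treated library to CTR for the 10 genes (log axis), with 95% counting intervals, in 1 panel each for DSF, IM and IM-DSF. In the IM-DSF panel the genes spread from NSFL1C at 0.645 to UBXN4 at 1.45, wider than the DSF panel, which runs from NPLOC4 at 0.845 to UBXN1 at 1.19. All genes tested also spread wider in IM-DSF against CTR, with percentiles 5 and 95 at -0.69 and 0.76 log2 units. In DSF against CTR these percentiles were -0.37 and 0.43.

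Counting intervals that excluded 1 were common across the whole table, so they set the precision of a ratio and do not mark a gene out. More fragments make an interval narrower. The shares of all genes given here and below were not matched to the fragment numbers of the members, which limits the comparison. In IM against CTR, 9 of the 10 genes had such an interval, 6 below and 3 above 1, where 63.2% of all genes did (29.5% below and 33.7% above). IM-DSF against CTR gave the same 6 and 3 genes, with 66.6% of all genes (31.9% below and 34.7% above); it shares the CTR library with the former. DSF against CTR gave 5 of 10 (NPLOC4, VCP and FAF1 below, UBXN1 and UBXN4 above) with 44.8% of all genes (22.3% below and 22.5% above). IM-DSF against IM gave 3 of 10 (UFD1 and NSFL1C below, UBXN4 above) with 44.7% of all genes (22.7% below and 22.0% above). IM-DSF against DSF gave 6 of 10, 4 below and 2 above, with 60.7% (29.3% below and 31.4% above). The median log2 difference of the 10 was -0.22 in IM against CTR, -0.21 in IM-DSF against CTR, -0.07 in IM-DSF against DSF, -0.02 in DSF against CTR and 0.02 in IM-DSF against IM. Over all genes tested the medians were 0.02, 0.02, 0.01, 0.00 and -0.00 in the same order.

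Comparisons without a common library can be set side by side. IM was added to untreated cells in IM against CTR and to DSF-treated cells in IM-DSF against DSF. VCP, UFD1, NSFL1C and PLAA were below 1 beyond counting error in both (4 of 10, with 18.1% of all genes), UBXN4 and UBXN7 were above 1 in both (2 of 10, with 20.2%), and 0 of 10 were on opposite sides (6.59% of all genes). DSF was added to untreated cells in DSF against CTR and to IM-treated cells in IM-DSF against IM. Here UBXN4 alone was above 1 in both (7.4% of all genes), and 0 of 10 were below 1 in both (7.23%) or on opposite sides (8.62%). NPLOC4, VCP and FAF1, the 3 genes that were lower in DSF than in CTR beyond counting error, had ratios of 1.05, 1.04 and 1.0 in IM-DSF against IM, with intervals that include 1. These intervals, and the counts above, hold for the scaling of the deposited FPKM. Scaled without mitochondrial genes, the log2 differences of NPLOC4, VCP and FAF1 in IM-DSF against IM were larger, at 0.15, 0.14 and 0.08. Rescaled to TPM, they were 0.12, 0.10 and 0.05. Intervals were not computed on these scalings. Which of them would include 1, and how many genes would lie on opposite sides, may therefore differ there.

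**Figure D5:**
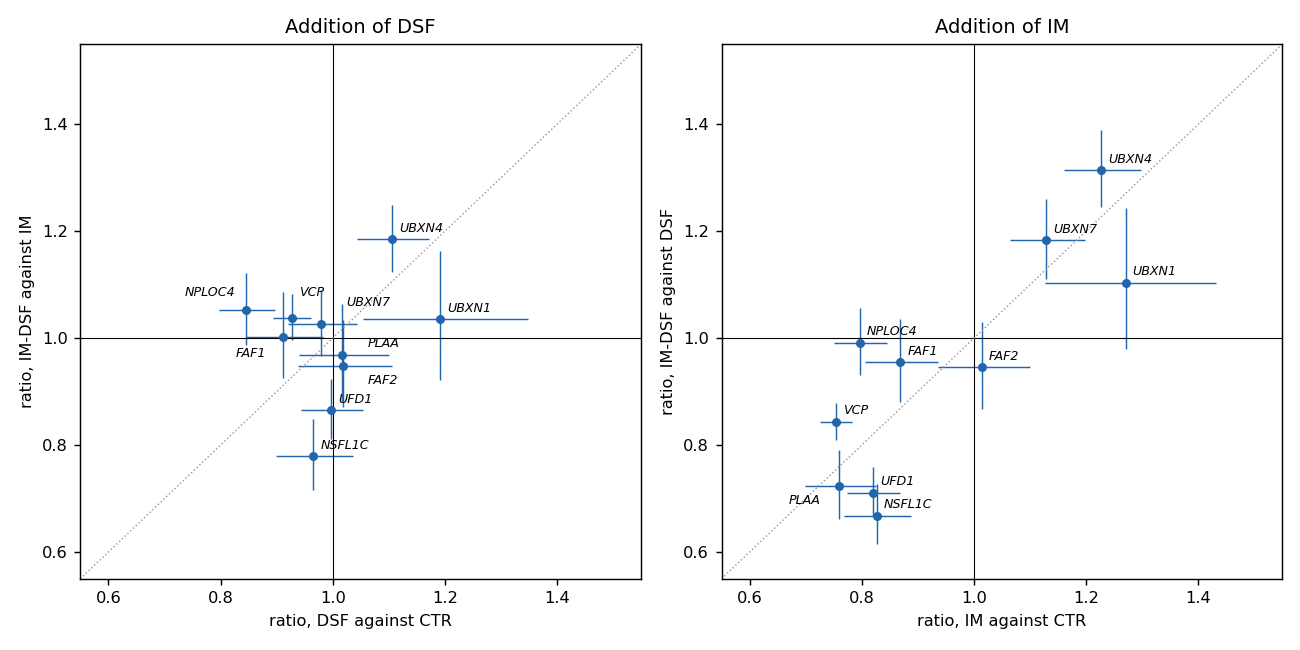
Left, ratio of DSF to CTR (x) against ratio of IM-DSF to IM (y); right, ratio of IM to CTR (x) against ratio of IM-DSF to DSF (y); points are the 10 genes, bars 95% counting intervals, dotted lines equal ratios. With IM added, UBXN4 and UBXN7 lie in the upper right and VCP, UFD1, NSFL1C and PLAA in the lower left, while with DSF added only UBXN4 clears 1 on both axes.

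The departure from additivity is the log2 ratio of IM-DSF to CTR minus those of both single treatments. No member reached 0.5 log2 units on the log2(FPKM + 1) scale, where 13.1% of all genes did. By counting intervals, 4 of 10 departed from 0, with 43.2% of all genes. NPLOC4 (0.32, 0.19 to 0.44) and VCP (0.16, 0.08 to 0.24) were higher in IM-DSF than the sum of the single differences. NSFL1C (-0.31, -0.46 to -0.15) and UFD1 (-0.20, -0.33 to -0.08) were lower than that sum. These departures hold for the deposited scaling and were not computed on others, where the genes whose intervals exclude 0 may differ. The partners UFD1 and NPLOC4 thus had departures of opposite sign, and their intervals did not overlap.

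Genes with the most similar pattern were found by the distance between centred log2(FPKM + 1) values over the 4 libraries, among 9253 protein-coding genes. The nearest to VCP were TRMU, a tRNA-modifying enzyme (distance 0.012 log2 units), CCDC58 (0.014) and PSMC2, an ATPase subunit of the proteasome (0.028). PSMC2 had 35.6, 32.5, 27.0 and 27.4 FPKM over the libraries in the order CTR, DSF, IM, IM-DSF. The nearest to NPLOC4 were the ubiquitin ligases TRIM13 (0.010, overlapping KCNRG) and TRIM37 (0.026) and the ribosome assembly factor UTP18 (0.028). Among the other members, PLAA was the nearest to VCP (0.14), with 504 of 9252 genes at least as near. FAF1 was the nearest to NPLOC4 (0.088), with 158. The distances rest on 4 values per gene and take no account of counting error. The order among the nearest genes is therefore uncertain, and a shared pattern shows no shared control.

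Of 23 other listed cofactors of VCP, 20 reached the mean of 1 FPKM that counts here as measured, and 0 passed 1 log2 unit in log2(FPKM + 1) in any of the 5 comparisons. With a pseudocount of 0.1, an alternative added after seeing the data, SPRTN passed against CTR in DSF (-1.08) and in IM-DSF (-1.35), and against IM in IM-DSF (-1.22), where 2.81%, 8.12% and 3.23% of all genes passed. SPRTN, a protease that clears proteins crosslinked to DNA, was the most different, with 2.26 FPKM in control cells, 1.01 with DSF, 2.05 with IM and 0.824 with both. It was low in both libraries with DSF, at 0.448 times CTR in DSF (0.365 to 0.547) and 0.364 times in IM-DSF (0.288 to 0.458). SPRTN overlaps EXOC8 on the opposite strand, and the part of EXOC8 in the SPRTN values was not tested. UBXN8, a UBX protein of the endoplasmic reticulum, was 0.643 times CTR in DSF (0.565 to 0.731), with 7.21, 4.64, 6.23 and 6.34 FPKM in the 4 libraries. UBXN11 was 1.68 times CTR in IM-DSF (1.41 to 2.02), and VCPIP1, a deubiquitinase bound to VCP, was 1.43 times (1.34 to 1.51). UBXN11 overlaps CD52 and SH3BGRL3 on the opposite strand, and their part in the UBXN11 values was not tested. The median of the 20 was 0.08 log2 units in IM-DSF against CTR and -0.06 in DSF against CTR.

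Among 20 genes of protein degradation at the endoplasmic reticulum, all measured, EDEM3 was the only call in DSF against CTR. This mannosidase-like factor of misfolded glycoproteins stood at 11.5 FPKM in control cells, 4.77 with DSF, 14.2 with IM and 13.1 with both (DSF 0.416 times CTR, 0.387 to 0.446), so it was low in DSF alone, and it was also the only call in IM-DSF against DSF. OS9, a lectin that selects glycoproteins for degradation, was 1.59 times CTR in IM-DSF (1.5 to 1.68), and EDEM1 was 1.5 times (1.43 to 1.57). BAG6, a chaperone of exposed membrane segments, was 0.738 times (0.693 to 0.786). BAG6 overlaps APOM on the opposite strand, and OS9 and EDEM1 overlap antisense transcripts. The part of these in the values was not tested. The median of the 20 was 0.12 log2 units in IM-DSF against CTR, with 11 above and 9 below 0.

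Of the 18 ubiquitin shuttles and receptors, 16 were measured and 0 passed 1 log2 unit in any comparison. ADRM1, a ubiquitin receptor of the proteasome, was 0.637 times CTR in IM-DSF (0.588 to 0.689), RAD23B, a shuttle that also works with VCP, 0.649 times (0.617 to 0.683) and TOLLIP 0.655 times (0.592 to 0.724). In DSF, TOLLIP was 0.697 times CTR (0.634 to 0.766). All 6 components listed for the ubiquitin ligases of replisome unloading were below CTR in IM-DSF (median -0.35 log2 units, 0 past 1 unit), where 47.9% of all genes tested were below CTR. LRR1, a substrate receptor, was 0.520 times CTR (0.386 to 0.693) but overlaps RHOQP1, ELOC was 0.590 times (0.544 to 0.640) and ELOB 0.756 times (0.674 to 0.848). In DSF against CTR the 6 were split 3 to 3, with ELOC at 0.873 (0.816 to 0.935) and TRAIP at 1.17 times CTR (1.01 to 1.36).

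In ribosome-associated quality control, where VCP extracts stalled chains, 9 of 9 genes were measured and 0 passed 1 log2 unit. PELO, a ribosome rescue factor that lies inside ITGA1, was 0.622 times CTR in IM-DSF (0.541 to 0.714), ASCC3, a helicase that splits collided ribosomes, 0.787 times (0.741 to 0.837) and ANKZF1, which releases stalled chains, 1.90 times (1.66 to 2.19). In DSF, NEMF was 0.806 times (0.743 to 0.875) and ANKZF1 1.35 times CTR (1.17 to 1.56). Of 10 other AAA ATPases, all measured, AFG2A (listed as SPATA5) was 0.586 times CTR in IM-DSF (0.512 to 0.669) and VPS4B 1.28 times (1.2 to 1.38). NSF, the ATPase of vesicle fusion, named here after its values were seen, was the only one of the 10 past 1 log2 unit, both in IM against CTR and in the comparison of IM-DSF with IM. It was low in IM alone, at 8.09 FPKM with IM beside 17.5 in control cells, 16.9 with DSF and 18.7 with both, while NSFP1, a pseudogene copy, had 0.187 FPKM in control cells and was listed at 0 in the other libraries. How reads common to NSF and NSFP1 were assigned was not tested. In DSF, NVL was 0.867 times CTR (0.782 to 0.961). Of the 5 genes that process the proteasome regulator NFE2L1, a client of VCP, NFE2L1 itself had 8.91, 8.78, 7.89 and 6.15 FPKM over the libraries in the order CTR, DSF, IM, IM-DSF and was 0.691 times CTR in IM-DSF (0.651 to 0.733). DDI2, the protease that cuts it (it overlaps RSC1A1), was 0.769 times (0.703 to 0.840) and NGLY1, which removes its sugars, 1.21 times (1.12 to 1.31). In DSF, DDI2 was 0.938 times (0.866 to 1.02) and NGLY1 0.950 times CTR (0.877 to 1.03), and both intervals include 1.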

How the data were processed

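Total RNA of 4 KBM5 cultures was made into stranded mRNA libraries, per the labels' protocols. The authors deposited 1 table of FPKM, per the file headers; HISAT2 2.0.4 and GRCh38.p14 stand in the submitters' processing notes. Not given in the sources used here: the counter of reads, the annotation release and the strand setting. GENCODE 29 gave exon lengths and overlaps for 50111 genes. Lengths and fragment numbers were recovered as the smallest length up to 60000 bases that makes FPKM whole, within 0.003, in every library above 0 (at least 3). The recovery, folds and calls were tried on simulated data that held counting error only, which says nothing of the spread between cultures. Differences use log2(FPKM + 1). No count test was run, since 1 library per group leaves no residual spread. All 10 members are named; of each of 7 other lists, up to 3 genes with the largest difference in IM-DSF against CTR and up to 2 in DSF against CTR; some genes that this rule names are not reported here. The members and lists were chosen with earlier results of these data known. Python 3.11.15, numpy 2.4.6, pandas 2.3.3, scipy 1.17.1 and matplotlib 3.10.9 were used.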

Additional observations from a re-analysis of the deposited data

How the results depend on the processing

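Under each of these changes, namely a pseudocount of 0.1, the filter dropped or raised to a mean of 5 FPKM (which leaves out UBXN1), rescaling to TPM, median-of-ratios factors, trimmed-mean factors and scaling without mitochondrial genes, 0 members passed 1 log2 unit in each of the 5 comparisons. With the size of 0.5 log2 units, 2 passed in IM-DSF against CTR and 1 in IM-DSF against DSF. The sign of a member's difference changed in 5 of 50 values on TPM, 1 with either factor and 4 without mitochondrial genes, all of them FAF2, PLAA or NPLOC4 values of at most 0.07 log2 units. Without mitochondrial genes, VCP in IM-DSF against IM went from 0.05 to 0.14 log2 units, UFD1 from -0.19 to -0.11 and UBXN4 from 0.24 to 0.32. VCP in IM against CTR went from -0.40 to -0.47. The counting intervals and the departures from additivity are given for the deposited scaling only. Per kilobase of merged exons, an alternative chosen after seeing the data, the mean UBXN1 level was 15.5 instead of 3.76 and that of NPLOC4 15.3 instead of 9.74. For the 7 other lists, the pseudocount of 0.1 added SPRTN to the calls in 3 comparisons, and EDEM3 and NSF were called with either pseudocount. No paired analysis was possible because each group has 1 library. Replicate spread cannot be had from these data, so differences of the sizes seen here could lie within the spread between cultures.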
